A study of Mus musculus with 8 samples.

Results

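The genes described here are 39 receptors, transcription factors and effectors of the interferon response, chosen by gene symbol and found as 39 of the 24787 rows of the deposited expression table. They were measured in 4T1 cells, a mouse mammary carcinoma line that was derived from a BALB/c mouse and grows in culture. The Etv5 knockdown group, shEtv5, held 4 libraries of cells carrying a short hairpin RNA against Etv5, an ETS-family transcription factor. Its counterpart, shcontrol, held 4 libraries of cells carrying a control hairpin, whose genotype label is wild type. The column names give all libraries of a group 1 construct name, so each group appears to rest on a single hairpin, and effects of Etv5 loss and of that hairpin cannot be told apart. The labels record no interferon, infection or other stimulus for either group, which does not establish that the cells were unstimulated. Nor do the labels say whether replicates were separate cultures, and p-values then measure the spread between these libraries, which may be technical. Each value behaves as the mean read coverage per base of a gene after scaling to library depth. How coverage was averaged is not given, and the third library of each group deviated with transcript length. Levels of different genes can therefore be compared only roughly. In bulk RNA, fewer cells expressing a gene and less RNA per cell cannot be told apart.

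Interferons are secreted proteins, and cells release those of type I on sensing viral or other foreign nucleic acid. Type I interferons act through the receptor chains Ifnar1 and Ifnar2, and interferon gamma through Ifngr1 and Ifngr2. The type I receptor assembles a complex of Stat2, Irf9 and a further STAT protein, which binds the interferon-stimulated response element (ISRE). STAT dimers formed under interferon gamma bind the gamma-activated site (GAS) and induce Irf1, among other genes. The induced genes encode sensors of foreign RNA, enzymes that block viral RNA or protein synthesis, membrane proteins that hinder viral entry or release, and feedback regulators. Many of them are also transcribed at a low level in unstimulated cells.

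Stretches from the promoters of 7 of the genes are shown because these genes span the range of measured levels and include the gene called below. They come from the RefSeq promoter table, build GRCm38.p6, which holds 250 bases before and 50 after each start site, and 32 of the 39 members had a window there. Both patterns were searched on both strands. The ISRE pattern was 2 copies of GAAA with any 2 bases between them, and the GAS pattern was TTCNNNGAA; they overlapped in 2 member windows. Capitals mark the letters that match the pattern named for each stretch, which is written 5′ to 3′ on the strand of its gene. In Irf1 the marked match is to the GAS pattern, and in the others to the ISRE pattern, which on the opposite strand reads as 2 copies of TTTC. The Bst2 stretch also holds a GAS match, 136 to 128 bases before the start. It overlaps the marked letters and is not itself marked.
Gbp2: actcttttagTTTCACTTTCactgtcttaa
Irf1: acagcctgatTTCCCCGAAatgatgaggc
Isg15: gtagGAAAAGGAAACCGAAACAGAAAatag
Bst2: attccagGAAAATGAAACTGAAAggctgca
Ifitm2: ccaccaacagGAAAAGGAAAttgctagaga
Ifit1: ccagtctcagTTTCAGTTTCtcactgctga
Rsad2: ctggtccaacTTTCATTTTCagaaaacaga

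The Gbp2 stretch lies at chr3:142620594-142620623 on the plus strand, with its match 59 to 50 bases before the RefSeq start. The GENCODE annotation places the start of Gbp2 at chr3:142620602, inside this stretch. By that annotation the match lies within the gene and not before it. The Irf1 stretch lies at chr11:53769914-53769942 on the plus strand, with its match 90 to 82 bases before the start. Isg15 holds 3 overlapping matches, 78 to 57 bases before its start, at chr4:156200871-156200900 on the minus strand. Bst2 holds 2 overlapping matches, 130 to 115 bases before its start, at chr8:71537580-71537609 on the minus strand. The remaining stretches lie at chr7:140955988-140956017 on the minus strand (Ifitm2), chr19:34640794-34640823 on the plus strand (Ifit1) and chr12:26456553-26456582 on the minus strand (Rsad2). The ISRE pattern stood in the windows of 15 of the 32 members (46.88%), and in those of 3.99% of the 27018 genes with windows. The GAS pattern stood in those of 11 of the 32 (34.38%), and of 9.55% of all these genes. A match is a description of the letters and not a binding site. The 15 members with the ISRE pattern had control means between 0.0112 (Rsad2) and 136 (Ifitm2). Neither pattern stood in the windows of Irf9, Irf7, both interferon gamma receptor chains, Oasl1, Oasl2, Ifitm1, Dtx3l, Trim25 and Xaf1.

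The third shEtv5 library stood apart from the other libraries. Its values summed to 390495, against 256510 to 274239 in the other shEtv5 libraries and 254792 to 308393 in the shcontrol libraries. Ribosomal protein genes took 21.7% of its sum, 7.85% to 9.13% in the other shEtv5 libraries and 8.13% to 11.9% in the shcontrol libraries. Fold changes are therefore given with and without it. Etv5 itself had values of 13.0, 11.2, 7.52 and 12.7 in the shEtv5 libraries, against 15.2, 15.1, 11.7 and 14.4 in the shcontrol libraries, so the groups overlapped. Its log2 fold change was -0.33 (SE 0.19) with a limma adjusted p of 0.819, and permuting its values exactly between the groups gave a two-sided p of 0.0857, where 0.0286 is the smallest possible. Without the third library the log2 fold change was -0.17 (limma adjusted p 0.422). The knockdown in the labels was therefore not called at the RNA level, and 26.8% of the 50-base words of Etv5 also occur in Gm4798. All 12 mammary epithelial markers were tested, and their values summed to 1425 to 3277 in shEtv5 and 1398 to 1884 in shcontrol. Of 16 leukocyte markers only Cd68 passed the filter; the 16 summed to 2.93 to 3.61 in shEtv5 and 3.16 to 4.83 in shcontrol, and Cd3e, Cd3g, Adgre1 and Tyrobp were listed at 0 throughout. The 7 fibroblast markers summed to 0.641 to 2.58 in shEtv5 and 2.72 to 3.60 in shcontrol, with Dcn and Lum at 0 throughout. The 5 endothelial markers summed to 0 to 0.125 in shEtv5 and 0.00380 to 0.0502 in shcontrol. With all 8 libraries 0 markers were called. Without the third shEtv5 library the epithelial markers Cdh1 (log2 fold change 0.71, limma adjusted p 0.00449) and Elf3 (-0.61, 0.0448) and the fibroblast marker Pdgfra (-0.50, 0.0446) were called, in the same fit that calls Gbp2. Their part in the members' results was not tested.

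The control cells carried transcripts of all 4 receptor chains and high levels of a small set of antiviral effectors, while several genes known for strong induction by interferon were near 0. Ifitm2 (mean 136) and Ifitm3 (96.8), membrane proteins that hinder the fusion of viruses with the cell, led the members in shcontrol libraries. They ranked at percentiles 98.4 and 97.6 of the 16916 rows with a control mean above 0. Next came Bst2 at 19.9, Ifngr2 at 16.0, Samhd1 at 13.9, Ifngr1 at 13.4, Irf1 at 11.7 and Adar at 10.6, which completes the 8 members with a mean of 10 or more. A further 16 members had means of 1 to under 10, and 10 had means of 0.1 to under 1. The lowest 5, under 0.1, were Rsad2, Mx1, Oas2, Ifitm1 and Mx2. These include the antiviral enzyme viperin (Rsad2) and the dynamin-like Mx GTPases. Mx2 was listed at 0 in every library and is annotated as a polymorphic pseudogene, so its value may not describe an inducible gene. Between the 4 shcontrol libraries the coefficient of variation of the tested members was 4.15% (Ifnar2) to 32.5% (Isg15). Neighbours in the order, such as Samhd1 at 13.9 ± 0.844 and Ifngr1 at 13.4 ± 0.572 (SD, n = 4 each), did not differ beyond this spread. Of 9 interferon genes looked up, among them Ifnb1 and Ifng, 8 were listed at 0 in every library, and Ifne had a value of 0.0641 in 1 shEtv5 library.

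**Figure D1:**
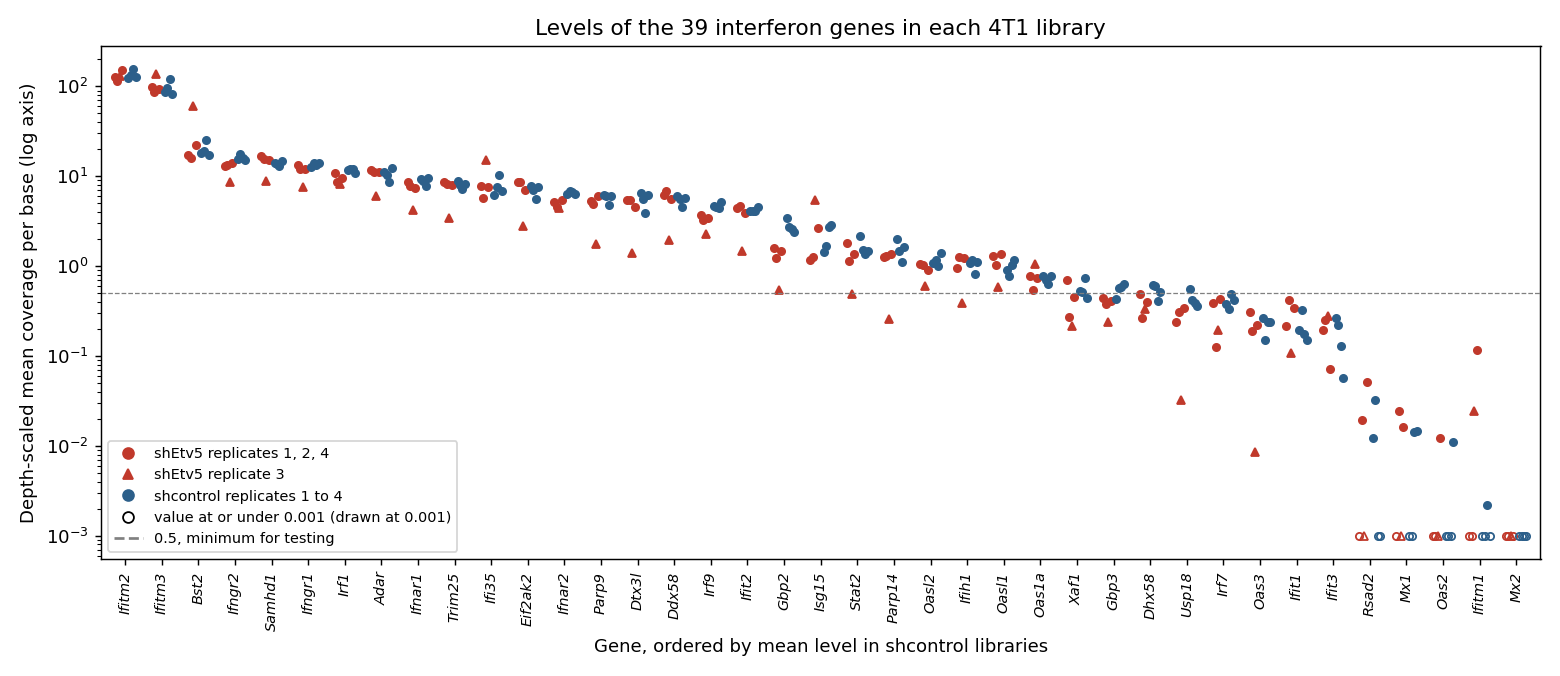
Value of each of the 39 genes in each library, as depth-scaled coverage per base on a log axis, with shEtv5 points and shcontrol points marked apart and the third shEtv5 library singled out. Ifitm2 and Ifitm3 lie highest in both groups, and the lowest genes lie at or near 0 in both.

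No member was called between shEtv5 and shcontrol when all 8 libraries were compared. A gene was tested when its value reached 0.5 in at least 4 libraries, which 27 of the 39 members did, and called at a limma adjusted p under 0.05. Of the 27 tested members 0 were called, against a background of 0.494% of the 11731 tested genes (0.486% lower and 0.00852% higher in shEtv5). An unadjusted limma p under 0.05 was held by 5 of the 27 (18.5%, background 7.09%), and without the third shEtv5 library also by 5 of the 27 (18.5%), at a background of 18.8%. Log2 fold changes, taken on log2(value + 1) and so understated for low genes, ran from -0.80 (Gbp2) to 0.32 (Bst2) with a median of -0.19. The median of all tested genes was -0.11. Negative values were held by 21 members (77.8%) and by 69% of all tested genes. Under median-of-ratios scaling the median of all genes was 0.02, so the offset of all genes moves with the scaling. The members' median was -0.09 under that scaling and -0.05 under quantile normalization.

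Without the third shEtv5 library 1 of the 27 tested members, Gbp2, was called lower in shEtv5 and 0 were called higher. The background was 2.06% of 11685 genes called lower and 1.09% called higher. The members' log2 fold changes then ran from -0.64 (Gbp2) to 0.19 (Oasl1), with a median of -0.09 against -0.00 for all tested genes. Values below 0 were held by 19 members (70.4%) and by 50.4% of all tested genes. The 12 members left out by the filter did not exceed 0.635 in any library, so their fold changes were not tested.

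**Figure D2:**
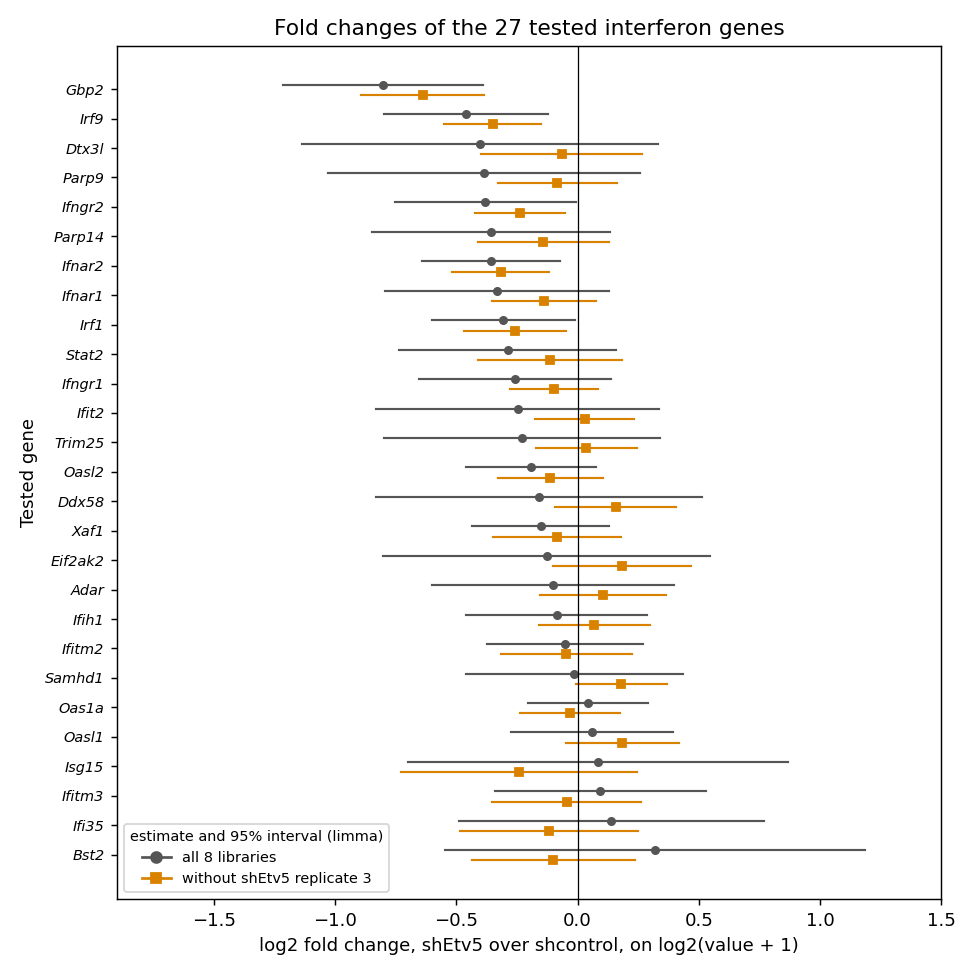
Log2 fold change of each tested member, shEtv5 over shcontrol on log2(value + 1), with its 95% interval from limma, for all 8 libraries and without the third shEtv5 library. Gbp2 is lowest in both fits, and Bst2 is at 0.32 with that library and at -0.10 without it.

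The groups did not overlap in 5 of the 27 tested members when all 8 libraries were used: Gbp2, Irf9, Ifngr2, Ifnar2 and Irf1. All 5 were lower in shEtv5, which is 18.5% of the tested members, against a background of 7.58% with shEtv5 lower and 9.1% in either direction. Without the third library 6 members (22.2%, background 20.2%) did not overlap. They were the same 5, against a background of 10.5% lower in shEtv5, and Samhd1, against a background of 9.78% higher. The 5 lower members are 2 receptor chains, 2 transcription factors and 1 effector.

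**Figure D3:**
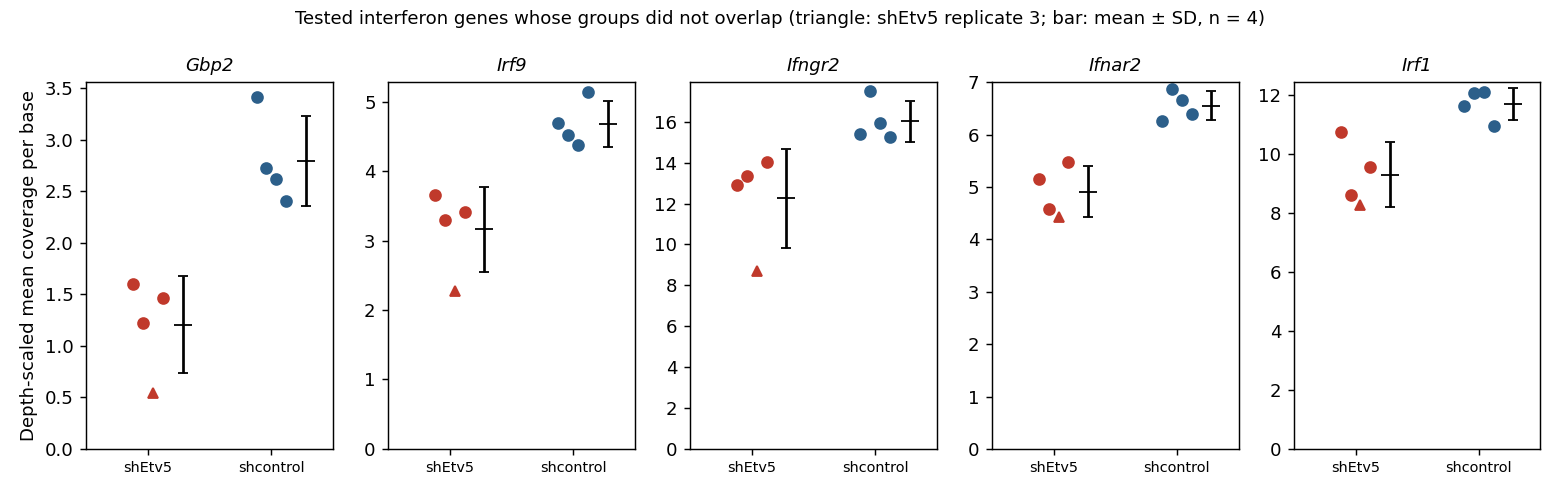
Value per library of the members whose 4 shEtv5 and 4 shcontrol libraries do not overlap, as depth-scaled coverage per base from 0, with shEtv5 on the left and the mean and SD of each group. In each panel every shEtv5 point lies below every shcontrol point; Gbp2 averages 1.21 in shEtv5 and 2.79 in shcontrol.

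Among the receptors, 1 chain of each type was lower in every shEtv5 library than in any shcontrol library, and none of the 4 was called. Ifnar2, the type I chain that binds interferon most tightly, had values of 5.15, 4.58, 4.43 and 5.48 in shEtv5, against 6.27, 6.88, 6.67 and 6.41 in shcontrol. The highest shEtv5 library was below the lowest shcontrol library. Its log2 fold change was -0.36 (95% interval -0.64 to -0.07, limma adjusted p 0.505), and -0.32 (limma adjusted p 0.0970) without the third library. Ifngr2, the signalling chain of the interferon gamma receptor, had values of 12.9, 13.3, 8.70 and 14.0 in shEtv5, against 15.4, 17.5, 15.9 and 15.3 in shcontrol. Here too the groups were apart, with the third shEtv5 library far below the other 3. It had a log2 fold change of -0.38 (95% interval -0.75 to -0.01, limma adjusted p 0.693), and -0.24 (limma adjusted p 0.163) without that library.

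The partner chains overlapped between the groups. Ifnar1, the chain that completes the type I receptor, had values of 8.53, 7.88, 4.23 and 7.48 in shEtv5, against 9.43, 8.81, 7.80 and 9.48 in shcontrol. Ifngr1, which binds interferon gamma, had values of 13.2, 12.1, 7.63 and 12.1 in shEtv5, against 12.7, 13.9, 13.2 and 13.9 in shcontrol. With all 8 libraries the log2 fold changes were -0.33 for Ifnar1 (limma adjusted p 0.855) and -0.26 for Ifngr1 (0.872). They were -0.14 for Ifnar1 (limma adjusted p 0.465) and -0.10 for Ifngr1 (0.553) without the third library. All but Ifngr1 lie on mm10 chromosome 16: Ifnar2 at chr16:91372783-91405589, Ifnar1 at chr16:91485238-91507441 and Ifngr2 at chr16:91547072-91565623. The gaps were 79.6 kb between Ifnar2 and Ifnar1 and 39.6 kb between Ifnar1 and Ifngr2. Of the 50-base words of Ifnar2, 8.87% also occur in Gm21970, so its reads could be split by the counting.

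Of the transcription factors, Irf9 and Irf1 were lower in all shEtv5 libraries, again without a call. Irf9, the DNA-binding part of the type I complex, had values of 3.66, 3.30, 2.28 and 3.41 in shEtv5, against 4.69, 4.52, 4.38 and 5.14 in shcontrol. It averaged 3.16 ± 0.609 in shEtv5 and 4.68 ± 0.328 in shcontrol (SD, n = 4 each), and the groups were apart with or without the third library. The log2 fold change was -0.46 (95% interval -0.80 to -0.12, limma adjusted p 0.443), and -0.35 (limma adjusted p 0.0746) without it. Irf1, a factor induced by interferon gamma that itself activates many of these genes, had values of 10.8, 8.61, 8.29 and 9.57 in shEtv5, against 11.7, 12.1, 12.1 and 10.9 in shcontrol. The highest shEtv5 library came close to the lowest shcontrol library. This gave a log2 fold change of -0.31 (limma adjusted p 0.678), and -0.26 (limma adjusted p 0.174) without the third library. Stat2 had values of 1.79, 1.13, 0.491 and 1.38 in shEtv5, against 2.15, 1.52, 1.37 and 1.48 in shcontrol, with overlap. Its log2 fold change was -0.29 (limma adjusted p 0.874), and -0.11 (limma adjusted p 0.674) without the third library. Irf7, which amplifies type I interferon production after induction, stayed at or below 0.489 and was not tested.

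Gbp2, a guanylate-binding protein that coats and disrupts vacuoles holding pathogens, was the lowest of all tested members relative to control. It had values of 1.60, 1.22, 0.539 and 1.46 in shEtv5, against 3.41, 2.72, 2.62 and 2.41 in shcontrol. Every shEtv5 library was well below every shcontrol library, and the third was lowest. It averaged 1.21 ± 0.470 in shEtv5 and 2.79 ± 0.434 in shcontrol (SD, n = 4 each), 2.32-fold lower by the group means. The log2 fold change was -0.80 (SE 0.18, 95% interval -1.22 to -0.39), which did not pass the threshold (limma adjusted p 0.169). Without the third library the shEtv5 mean was 1.43 ± 0.190 (SD, n = 3), 1.96-fold lower, and the log2 fold change was -0.64 (SE 0.11, limma adjusted p 0.0182), which did. The adjusted p of Gbp2 ran from 0.000394 to 0.703 over the 21 other settings, and it was called in 5 of them, 4 without the third library and 1 with array quality weights. With the second shEtv5 library left out as well it was 0.116. Gbp2 lies at chr3:142620602-142638008 on mm10, and 2.07% of its 50-base words also occur in Gbp2b. Gbp3, at a gap of 47.4 kb from Gbp2, had values of 0.442, 0.383, 0.239 and 0.406 in shEtv5. Its shcontrol values were 0.427, 0.577, 0.579 and 0.635, and it was not tested. Of the other Gbp genes in the wider pathway list, Gbp9 had a log2 fold change of -0.84 (limma adjusted p 0.264). Without the third library it was -0.67 (limma adjusted p 0.0527), and the groups of Gbp9 did not overlap. Gbp9 was called after removal of the length trend. Gbp4 had -0.41 (limma adjusted p 0.511), and -0.33 (limma adjusted p 0.228) without that library, with overlap. Gbp5, Gbp6 and Gbp7 were not tested, and their means were also lower in shEtv5. The Mx genes did not exceed 0.0246 in any library.

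The RNA sensors did not separate the groups. Ddx58, which encodes RIG-I, a sensor of RNA ends, had values of 6.12, 6.86, 1.97 and 5.62 in shEtv5, against 6.01, 5.65, 4.51 and 5.69 in shcontrol. Ifih1, which encodes MDA5, a sensor of long double-stranded RNA, had values of 0.953, 1.25, 0.393 and 1.24 in shEtv5, against 1.10, 1.17, 0.819 and 1.11 in shcontrol. In both genes the third shEtv5 library was lowest and the remaining shEtv5 libraries lay around the controls. The log2 fold change of Ddx58 was -0.16 (limma adjusted p 0.895) with it and 0.16 (limma adjusted p 0.476) without it. That of Ifih1 was -0.09 (limma adjusted p 0.895) with it and 0.07 (limma adjusted p 0.746) without it. Dhx58, a regulator of both sensors, did not exceed 0.616 and was not tested.

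The IFIT and OAS families hold proteins that bind viral RNA or make the messenger that activates RNase L, and none of their 4 tested members was called. Ifit2 had values of 4.44, 4.70, 1.49 and 3.94 in shEtv5, against 4.16, 4.10, 4.14 and 4.58 in shcontrol, a log2 fold change of -0.25 (limma adjusted p 0.879) and 0.03 (limma adjusted p 0.884) without the third library. Ifit1 and Ifit3 did not exceed 0.422 in any library. Oasl1 had values of 1.31, 1.04, 0.583 and 1.38 in shEtv5, against 0.907, 0.783, 1.03 and 1.17 in shcontrol, and its log2 fold change without the third library, 0.19 (limma adjusted p 0.374), was the highest among the members. Oasl2 and Oas1a had log2 fold changes of -0.19 and 0.04 with all 8 libraries. Neither was called by limma, with adjusted p of 0.855 for Oasl2 and 0.913 for Oas1a. They were -0.11 for Oasl2 (limma adjusted p 0.563) and -0.03 for Oas1a (0.882) without the third library. Oas2 was listed at 0 in 3 of 4 libraries of each group, and Oas3 did not exceed 0.310. More than 50% of the 50-base words of Oas1a (57.6%) and Ifit3 (51.2%) also occur in close paralogs, Oas1g and Ifit3b, so their values are uncertain.

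Of the membrane effectors, 3 were among the highest members and none was called. Ifitm2 had values of 128, 116, 129 and 151 in shEtv5, against 125, 134, 155 and 129 in shcontrol. Ifitm3 had values of 98.0, 86.4, 137 and 94.1 in shEtv5, against 87.0, 96.3, 122 and 81.7 in shcontrol. The third library of each group was the highest for Ifitm3, and the groups overlapped for both genes. The log2 fold changes were -0.05 for Ifitm2 (95% interval -0.38 to 0.27, limma adjusted p 0.921) and 0.09 for Ifitm3 (limma adjusted p 0.899). Without the third shEtv5 library they were -0.05 for Ifitm2 (limma adjusted p 0.867) and -0.04 for Ifitm3 (0.888). Together they made up 57.7% to 63.9% of the summed values of the 39 members in shEtv5 and 55.8% to 63.2% in shcontrol. Of the 50-base words of Ifitm2, 48.5% occur in other genes. Ifitm1 did not exceed 0.117 and was not tested. Bst2, or tetherin, which holds budding virus particles on the cell, had values of 17.0, 16.1, 60.6 and 22.4 in shEtv5, against 18.2, 19.1, 25.3 and 17.2 in shcontrol. A single library set its fold change: the log2 value was 0.32 (95% interval -0.55 to 1.18, limma adjusted p 0.879) with the third shEtv5 library and -0.10 (limma adjusted p 0.747) without it.

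Isg15, a ubiquitin-like protein that is attached to other proteins during the response, behaved like Bst2. It had values of 1.18, 1.28, 5.48 and 2.65 in shEtv5, against 1.44, 1.68, 2.69 and 2.83 in shcontrol. Its log2 fold change was 0.09 (limma adjusted p 0.940) with the third library and -0.24 (limma adjusted p 0.581) without it. Usp18, the protease that removes Isg15 and dampens the type I receptor, had values of 0.239, 0.306, 0.0327 and 0.339 in shEtv5, against 0.552, 0.420, 0.389 and 0.359 in shcontrol. Its groups did not overlap, but it was under the filter and not tested. Ifi35, an interferon-induced protein with leucine zipper features, had values of 7.72, 5.70, 15.2 and 7.63 in shEtv5, against 6.21, 7.59, 10.4 and 6.84 in shcontrol. Xaf1, which opposes the apoptosis inhibitor XIAP, had values of 0.698, 0.274, 0.217 and 0.450 in shEtv5, against 0.534, 0.509, 0.739 and 0.444 in shcontrol. Neither was called, and both overlapped between groups. Ifi35 had a log2 fold change of 0.14 with the third library and -0.12 without it, and Xaf1 had -0.15 with it and -0.09 without it.

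None of the 4 PARP and ubiquitin ligase genes was called, and their log2 fold changes lay nearer to 0 without the third shEtv5 library. Parp9 and Dtx3l, whose proteins form a complex that modifies histones after DNA damage and in the interferon response, overlap on mm10 by 681 bases. Parp9 had values of 5.29, 4.88, 1.75 and 5.99 in shEtv5, against 6.20, 6.06, 4.81 and 6.03 in shcontrol. Dtx3l had values of 5.43, 5.40, 1.40 and 4.59 in shEtv5, against 6.47, 5.52, 3.87 and 6.12 in shcontrol. In both the third shEtv5 library was lowest, as the third shcontrol library was among the controls. Without a stated strand setting, reads of the shared stretch cannot be told apart. Log2 fold changes were -0.39 for Parp9 and -0.40 for Dtx3l with it (limma adjusted p 0.879 for both), and -0.08 and -0.07 without it. Parp14, a mono-ADP-ribosyltransferase, had values of 1.25, 1.29, 0.260 and 1.35 in shEtv5, against 1.98, 1.46, 1.11 and 1.65 in shcontrol. Trim25, the ubiquitin ligase that acts with RIG-I, had values of 8.58, 8.19, 3.45 and 8.0 in shEtv5, against 8.90, 7.92, 7.13 and 8.23 in shcontrol. The log2 fold change of Parp14 was -0.36 with the third library and -0.14 without it, and that of Trim25 was -0.23 with it and 0.04 without it.

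The 3 tested enzymes that act on nucleotides and RNA had higher means in shEtv5 than in shcontrol without the third shEtv5 library, and none was called. Samhd1, which depletes deoxynucleotides, had values of 16.8, 15.5, 8.83 and 15.3 in shEtv5, against 14.1, 13.7, 12.9 and 14.9 in shcontrol. With all 8 libraries the log2 fold change was -0.01 (limma adjusted p 0.983). Without the third library the groups did not overlap, and it was 0.18 (95% interval -0.01 to 0.37, limma adjusted p 0.280). Eif2ak2, which encodes PKR, the kinase that halts translation on double-stranded RNA, had values of 8.59, 8.62, 2.81 and 7.03 in shEtv5, against 7.89, 7.11, 5.52 and 7.57 in shcontrol. Adar, the enzyme that edits adenosines in double-stranded RNA, had values of 11.9, 11.3, 6.02 and 11.1 in shEtv5, against 11.2, 10.3, 8.60 and 12.4 in shcontrol. Both overlapped, with log2 fold changes over all 8 libraries of -0.13 for Eif2ak2 (limma adjusted p 0.909) and -0.10 for Adar (0.902). Without the third library they were 0.18 for Eif2ak2 and 0.11 for Adar, at limma adjusted p of 0.465 and 0.656. Of the 50-base words of Adar, 20.1% occur in Chrnb2. Rsad2 did not exceed 0.0507 and was not tested.

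The deviation of the third shEtv5 library followed the transcript length of the members. Among the 22 tested members of 1500 bases or more it was lowest of its group in 21, and among the 5 shorter ones it was highest in 4. Over all tested genes it was lowest in 64.9% and highest in 27.4%. Its value was 3.27 times the mean of the other shEtv5 libraries for Bst2 (792 bases), 3.22 times for Isg15 (756 bases) and 2.17 times for Ifi35 (1362 bases). The mean of the other shEtv5 libraries was 4.98 times its value for Parp14 (7417 bases), 3.67 times for Dtx3l (5309 bases) and 3.15 times for Ddx58 (3874 bases). Spearman's rho between this deviation and transcript length was -0.791 over the 27 tested members and -0.595 over 11561 tested genes, as a description across genes that share libraries. The deviation ran from -1.35 (Dtx3l) to 1.67 (Bst2) on the log2 scale. That of the third shcontrol library ran from -0.53 (Dtx3l) to 0.54 (Ifi35), with a rho of -0.860 over the 27 members. The part of this length trend in single fold changes was not tested, beyond the values given with and without the library. Irf1 and Ifnar2 were among the least affected, with the mean of the other shEtv5 libraries 1.16 and 1.15 times the third.

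**Figure D4:**
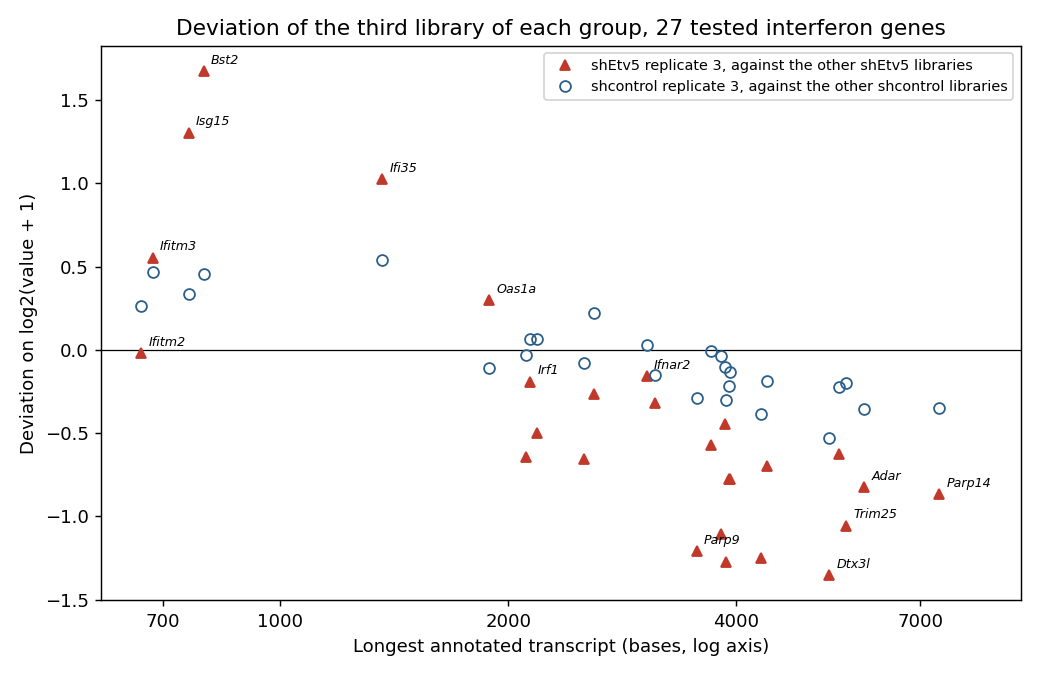
Deviation of the third library from the mean of the others of its group, in log2(value + 1), against the length of the longest transcript in bases on a log axis, for the 27 tested members, shEtv5 and shcontrol marked apart. Short genes such as Bst2 and Isg15 lie above 0 and long ones such as Dtx3l below it, with a wider range in shEtv5.

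Other genes of the pathway were counted from a list of 103, of which 101 had a row and 77 were tested. With all 8 libraries 1 was called lower in shEtv5, Ikbke, and 0 were called higher, against backgrounds of 0.486% and 0.00852%. Ikbke, a kinase that activates interferon regulatory factors, had values of 6.16, 6.47, 7.28 and 6.13 in shEtv5, against 15.5, 14.7, 13.2 and 14.3 in shcontrol. The groups were far apart, and the third shEtv5 library was the highest of its group, at 1.16 times the mean of the others. The log2 fold change was -1.04 (SE 0.12, limma adjusted p 0.00729), and -1.09 (limma adjusted p 0.000179) without the third library. The call of Ikbke was lost under 3 other settings, with log2 fold changes of -0.88 under median-of-ratios scaling (limma adjusted p 0.138), -0.95 under quantile normalization (0.0655) and -0.85 after removal of the length trend (0.221). It was lost as well without shcontrol library 1 (-1.01, limma adjusted p 0.0669), 2 (-1.03, 0.0766) or 4 (-1.05, 0.0651).

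Without the third shEtv5 library 4 of the 77 were called lower and 1 higher, against backgrounds of 2.06% and 1.09%. Casp4, the inflammatory caspase that senses cytosolic endotoxin, had values of 0.562, 0.481, 1.30 and 0.496 in shEtv5, against 1.94, 1.68, 1.70 and 1.74 in shcontrol. Slfn2, a Schlafen protein, had values of 0.740, 0.347, 0.965 and 0.746 in shEtv5, against 1.74, 1.88, 2.36 and 1.75 in shcontrol. Both were below control in all 4 shEtv5 libraries, with log2 fold changes of -0.72 for Casp4 and -0.79 for Slfn2 at limma adjusted p of 0.147 and 0.0632. Without the third library both values were -0.87, at 0.000718 for Casp4 and 0.00704 for Slfn2. Casp1, which processes interleukin-1 beta, had values of 1.69, 2.14, 2.91 and 1.35 in shEtv5, against 2.95, 3.35, 5.25 and 4.11 in shcontrol. Its log2 fold change was -0.71 (limma adjusted p 0.367), and -0.84 (limma adjusted p 0.0293) without the third library. Tlr3, the endosomal receptor for double-stranded RNA, had values of 4.91, 5.40, 1.56 and 4.23 in shEtv5, against 3.26, 2.90, 2.75 and 3.53 in shcontrol. It was above control in 3 of the 4 shEtv5 libraries, with a log2 fold change of 0.21 (limma adjusted p 0.881) over all libraries and 0.51 (limma adjusted p 0.0398) without the third. The calls of Casp1 and Tlr3 were lost when the second shEtv5 library was left out as well, at limma adjusted p of 0.0782 and 0.184.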

How the data were processed

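RNA of 8 libraries of 4T1 cells was sequenced after TruSeq preparation, per the labels' protocols. Alignment used STAR 2.7.10a and mm10, per the submitters' processing notes. The column names point to coverage tracks, and the deposited signal behaves as mean coverage per base after depth scaling. How coverage was averaged, on which annotation and strand, is not given in the sources used here. Reads could not be recovered, so depth stays unknown and counting error is not stated.

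The members and lists were chosen with earlier results of these data known. All 39 members are accounted for. Of the wider list, up to 4 called genes in each direction are named, as are the Gbp genes beside Gbp2. The filter was a value of 0.5 in 4 libraries. Testing used limma 3.58.1 (R 4.3.3) on log2(value + 1) with a variance trend, and Benjamini-Hochberg adjustment over all tested genes. Longest transcripts and coordinates came from GENCODE mouse on mm10, and promoters from RefSeq. Alternatives were other scalings, filters, a pseudocount of 0.1, quality weights, a replicate block, removal of length trends and leaving out libraries.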

Additional observations from a re-analysis of the deposited data

Results flagged for a closer look

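A library was picked out when its gap to the nearest other library of its group, divided by the group's range, passed Dixon's 95% limit for 4 values. Of 62 groups screened 10 passed, where chance gives about 3.1, and 7 of the 10 were the third shEtv5 library. Among members, that library was highest for Bst2 at 60.6, and lowest for Parp14 at 0.260, Trim25 at 3.45 and Adar at 6.02. It also had the highest sum of values, 390495, the fewest genes above 0, 13920, and the highest share of ribosomal protein genes, 21.7%. Among shcontrol libraries, the fourth was highest for Ifit2 at 4.58, and the third was lowest for Parp9 at 4.81 and in genes above 0 at 15126.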

How the results depend on the processing

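Depth is unknown, so genes near the filter of 0.5 are the least certain, and the 12 untested members carry no statement on change. The 2 combinations named as added were chosen after seeing the data. Members called numbered 0 with all libraries in the settings not named here. Array quality weights, whose fit stopped before convergence, called 7 of the 27 tested members: Gbp2, Irf9, Ifngr2, Ifnar2 and Parp14 lower, Samhd1 and Oasl1 higher. The weights called 3183 of the 11731 tested genes (1670 lower, 1513 higher), a share close to that of the members. They also called 30 of the 77 tested other pathway genes, a larger share than that of all tested genes. Under the weights Etv5 was called at -0.19 (limma adjusted p 0.0392). All tested genes called numbered 37 at a pseudocount of 0.1 and 114 after removal of the length trend (92 lower, 22 higher). Other pathway genes called were 0 under median-of-ratios and quantile scaling and 2 under equal sums and under the length correction.

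Leaving out 1 library at a time gave 0 to 1 members called, 20 to 368 of all tested genes and 0 to 5 other pathway genes; the high end of each was the fit without the third shEtv5 library. In that fit, median-of-ratios scaling gave 1 member, 370 genes and 6 other pathway genes. The added length and GC correction gave 4 of the 27 members (Gbp2, Irf9, Ifngr2, Ifnar2), 1334 of 11517 genes (690 lower, 644 higher) and 14 other pathway genes. Leaving out the second shEtv5 library too, also added, gave 0 members, 98 genes and 3 other pathway genes. Same-numbered correlations of deviations were 0.549, 0.0924, 0.794 and 0.510. A library correlated best with its own number for 1 of 4 shEtv5 and 2 of 4 shcontrol libraries. These values cannot decide whether replicate numbers pair the libraries, because the third libraries of both groups deviated with transcript length. The replicate block called 51 genes and 0 members with all libraries. Without the third shEtv5 library it called 292 genes, 1 member and 4 other pathway genes, with Casp1 (limma adjusted p 0.0576) and Tlr3 (0.0951) no longer called.

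Signs of members turned as follows; the cause was not tested, and Samhd1 under weights was the only one of these called. Log2 fold changes under median-of-ratios scaling were 0.12 (Ifitm2), 0.15 (Samhd1), 0.012 (Eif2ak2) and 0.056 (Adar), and under equal sums -0.0057 (Oas1a). Quantile scaling gave 0.097 (Ifih1), 0.029 (Ddx58), 0.0015 (Oasl2), -0.0078 (Ifitm3), 0.095 (Samhd1), 0.054 (Eif2ak2), 0.035 (Adar) and 0.034 (Xaf1). Weights gave 0.0058 (Stat2), 0.086 (Ddx58), -0.33 (Isg15), 0.048 (Ifit2), -0.089 (Bst2), 0.036 (Trim25), 0.22 (Samhd1), 0.17 (Eif2ak2), 0.088 (Adar) and 0.12 (Xaf1). The length correction gave 0.097 (Ifih1), -0.057 (Isg15), -0.061 (Ifitm3), 0.13 (Samhd1), 0.031 (Eif2ak2) and 0.089 (Adar). Without the third shEtv5 library, median-of-ratios scaling gave 0.075 (Ifih1), 0.17 (Ddx58), -0.23 (Isg15), 0.038 (Ifit2), -0.027 (Oas1a), -0.091 (Bst2), -0.035 (Ifitm3), 0.045 (Trim25), 0.19 (Samhd1), 0.19 (Eif2ak2), 0.11 (Adar) and -0.11 (Ifi35). The block there gave 0.013 (Ifih1), 0.084 (Ddx58), -0.16 (Isg15), 0.021 (Ifit2), -0.058 (Oas1a), 0.020 (Ifitm2), 0.15 (Samhd1), 0.088 (Eif2ak2) and 0.016 (Adar). The length and GC correction there gave 0.11 (Ddx58), -0.080 (Isg15), 0.14 (Ifitm2), 0.15 (Samhd1), 0.13 (Eif2ak2), 0.052 (Adar) and -0.0020 (Ifi35). Without shEtv5 libraries 2 and 3 it was 0.033 (Ifih1), 0.093 (Ddx58), -0.14 (Isg15), -0.013 (Bst2), 0.041 (Ifitm2), 0.041 (Trim25), 0.19 (Samhd1), 0.14 (Eif2ak2), 0.11 (Adar) and 0.015 (Xaf1). Leaving out 1 library at a time gave ranges of -0.16 to 0.069 (Ifih1), -0.31 to 0.16 (Ddx58), -0.24 to 0.28 (Isg15), -0.37 to 0.030 (Ifit2), -0.031 to 0.11 (Oas1a), -0.010 to 0.19 (Oasl1), -0.10 to 0.52 (Bst2), -0.12 to 0.015 (Ifitm2), -0.045 to 0.21 (Ifitm3), -0.33 to 0.036 (Trim25), -0.10 to 0.18 (Samhd1), -0.26 to 0.18 (Eif2ak2), -0.19 to 0.11 (Adar) and -0.12 to 0.31 (Ifi35).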
